A study of Mus musculus with 12 samples.

Results

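MHC class II molecules display peptides from the endosomal compartment to CD4+ T cells. An alpha and a beta chain pair in the endoplasmic reticulum around the invariant chain, which fills the groove and directs the complex to endosomes, where proteases trim it and the DM heterodimer exchanges the remaining fragment for peptide. Professional antigen-presenting cells make these molecules constitutively, and many other cell types make them after interferon-gamma through the transactivator CIITA, which acts on a conserved promoter module of X and Y boxes. The 8 genes described here, chosen by name out of 55536 annotated genes, were the classical chains H2-Aa, H2-Ab1 and H2-Eb1, the DM subunits H2-DMa, H2-DMb1 and H2-DMb2, the invariant chain Cd74, and Ifi30, which encodes GILT, the thiol reductase that opens disulfide bonds of endocytosed antigens.

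They were measured by total RNA-seq in cultured mouse oligodendrocyte precursor cells (OPCs), the glial progenitors that give rise to oligodendrocytes. OPCs came from pooled brains of pups at postnatal day 4 to 6 and were purified either by FACS for Sox10GFP+ cells or with CD140a beads, and GFP in the study's mice is expressed where Sox10-driven Cre recombined a reporter allele (Sox10:Cre with RCE:loxP). Per the study's methods the Sox10:Cre parents had a C57BL/6j background and the RCE:loxP parents a mixed C57BL/6xCD1 background. Ctr cultures were left untreated, Dexa cultures received the glucocorticoid dexamethasone at 1 µM and IFNg cultures received interferon-gamma at 100 ng/ml, both for 48 h, and 4 replicates per group came from different litters. All groups shared the proliferation medium, and the labels tag every library with the mouse model EAE without further detail. No culture received both agents.

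Of the 12 libraries, 11 held 141862 transcripts each with 19209063 to 52074652 assigned reads, and Dexa replicate 3 listed 33.7% of those transcripts and 0 of the 8 genes, so that library was left out and Dexa had 3 replicates. The 6 lineage markers Pdgfra, Cspg4, Sox10, Olig1, Olig2 and Ptprz1 were abundant in every library, with a summed level of 751 to 1318 TPM (transcript abundance corrected for length and depth) in Ctr, 912 to 1334 TPM in Dexa and 659 to 1269 TPM in IFNg, and 0 of 6 were called in either treatment. The 14 microglial and macrophage markers reported here summed to 0.163 to 0.729 TPM in Ctr, 0.232 to 0.622 TPM in Dexa and 0.329 to 1.31 TPM in IFNg. None of these 14 genes was called with DESeq2 (0 at an unadjusted p under 0.05), and 2 of the 14 passed the count filter. 11 of the 14 had under 10 reads in every library, and the mean normalized count was higher in IFNg than in Ctr for 11 of the 14. C1qa had 0, 2, 0 and 1 reads in Ctr and 0, 3, 3 and 4 in IFNg, C1qb 0, 1, 0 and 0 against 0, 4, 2 and 3, Cx3cr1 0, 1, 0 and 0 against 0, 3, 0 and 2, and Tyrobp 0, 2, 0 and 0 against 0 in all 4. Of the 7 dendritic and B cell markers only Zbtb46 passed the count filter, and it was not called. In IFNg 1 of 4 fibroblast and pericyte markers, 1 of 4 astrocyte markers and 1 of 3 neuronal markers were called higher, with summed levels of 0.0387 to 0.894 TPM in Ctr and 0.235 to 1.68 TPM in IFNg for fibroblasts and pericytes, 49.6 to 144 and 84.4 to 173 TPM for astrocytes, and 12.4 to 15.2 and 25.3 to 58.1 TPM for neurons. Reads not scaled for depth did not move together within a list. Size factors were 0.921 to 1.61 in Ctr and 0.779 to 1.06 in IFNg, so unscaled reads favour Ctr. A gene with fewer unscaled reads in IFNg need not be lower after scaling. Tubb3 had 950 to 1440 reads in Ctr and 1522 to 4557 in IFNg. Snap25 had 162 to 381 and 111 to 185, and Rbfox3 38 to 71 and 18 to 57. Lum had 1 to 31 and 19 to 143, Pdgfrb 8 to 70 and 3 to 27. Col1a1 had 3 to 59 and 4 to 21, and Dcn 0 to 46 and 0 to 12. Gfap had 6 to 65 and 149 to 388, and Aqp4 272 to 1583 and 186 to 603. Aldh1l1 had 816 to 4391 and 1362 to 4256, and Slc1a3 12133 to 35183 and 12478 to 24403. The part of these lists in the class II values was not tested, and in bulk RNA a change in the number of expressing cells and a change in RNA per cell cannot be told apart.

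The X and Y boxes that class II promoters are known for lie close to the gene starts, so those letters are shown first. RefSeq promoters (GRCm38.p6, 250 bases before to 50 bases after each annotated start) were listed for 6 of the 8 genes, 7 promoters in all. H2-Ab1 and Cd74 had no entry. Letters were searched on both strands: GCAAC, the half-site of the X box bound by RFX; ATTGG, the Y box bound by NF-Y; and GCAAC followed on the same strand by ATTGG after 20 to 35 bases. The stretch from before GCAAC to after ATTGG is printed for H2-Aa (chr17:34287857-34287914, minus strand), H2-Eb1 (chr17:34305766-34305822, plus strand) and H2-Eb2, a further beta chain outside the 8 genes (chr17:34325533-34325589, plus strand), 5′ to 3′ with both motifs in capitals.
H2-Aa: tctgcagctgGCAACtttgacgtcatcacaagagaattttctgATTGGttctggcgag
H2-Eb1: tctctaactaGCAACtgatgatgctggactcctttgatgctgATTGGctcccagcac
H2-Eb2: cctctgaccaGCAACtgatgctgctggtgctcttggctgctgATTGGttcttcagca

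These windows lie upstream of the annotated starts and hold no annotated exon base. GCAAC and ATTGG were separated by 28 bases in H2-Aa and by 27 bases in both H2-Eb1 and H2-Eb2, and the ordered pair occurred in 2 of the 6 genes with a promoter entry against 0.794% of all 32851 promoters. ATTGG alone occurred in 5 of the 6, including H2-DMa through its second listed promoter, against 37.4% of all promoters, and GCAAC alone in 35.2% of all promoters. H2-DMa was the only gene with more than 1 listed promoter. Neither of them lies at the start of the transcript that took most H2-DMa reads in IFNg. The Ifi30 promoter held none of these letters.

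The DM beta genes lacked GCAAC but held a close variant of the stretch around it. The 17 bases of H2-Eb1 that begin 3 bases before GCAAC are set beside the closest 17 bases of the other promoters, with bases that differ from H2-Eb1 in capitals; the comparison was chosen after the sequences were seen.
H2-Eb1: ctagcaactgatgatgc
H2-Eb2: cCagcaactgatgCtgc
H2-DMb1: ctagTaactgatgatgc
H2-DMb2: ctaTTaacCgatgatgc

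Counted from 1 at the 5′ end of this stretch, H2-DMb1 differed from H2-Eb1 by C5T alone (chr17:34153094-34153110, inside the first exon of the GENCODE transcript ENSMUST00000114232 and 97 bases before the RefSeq start). H2-DMb2 differed by G4T, C5T and T9C (chr17:34145123-34145139), and H2-Eb2 by T2C and A14C. The distance from the stretch to ATTGG was 19 bases in both DM beta genes and 18 bases in H2-Eb1. A stretch within 1 mismatch of the H2-Eb1 letters occurred in 2 of the 32851 promoters, and one within 3 mismatches in 33 of them. The 2 are H2-Eb1 itself and H2-DMb1, and the 33 include every gene printed above. H2-Aa matched H2-Eb1 at GCAAC but differed at 8 of the 17 bases, a level of likeness that 99.6% of promoters reached somewhere in their sequence, and so did both listed H2-DMa promoters.

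In untreated OPCs 6 of the 8 genes had at most 33 reads in any library, and H2-Ab1 (27 to 50 reads) and H2-DMa (115 to 241 reads) had more. The 8 genes together took 0.000500% to 0.000706% of assigned reads in Ctr, a summed level of 4.48 ± 0.91 TPM (SD, n = 4), of which H2-DMa gave 2.79 ± 0.66 TPM. In IFNg they took 0.0924% to 0.126% of reads and 814 ± 138 TPM (n = 4). In Dexa the sum was 3.76 ± 0.68 TPM (n = 3), within the Ctr range of 3.19 to 5.31 TPM apart from 1 library at 3.10 TPM.

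**Figure D1:**
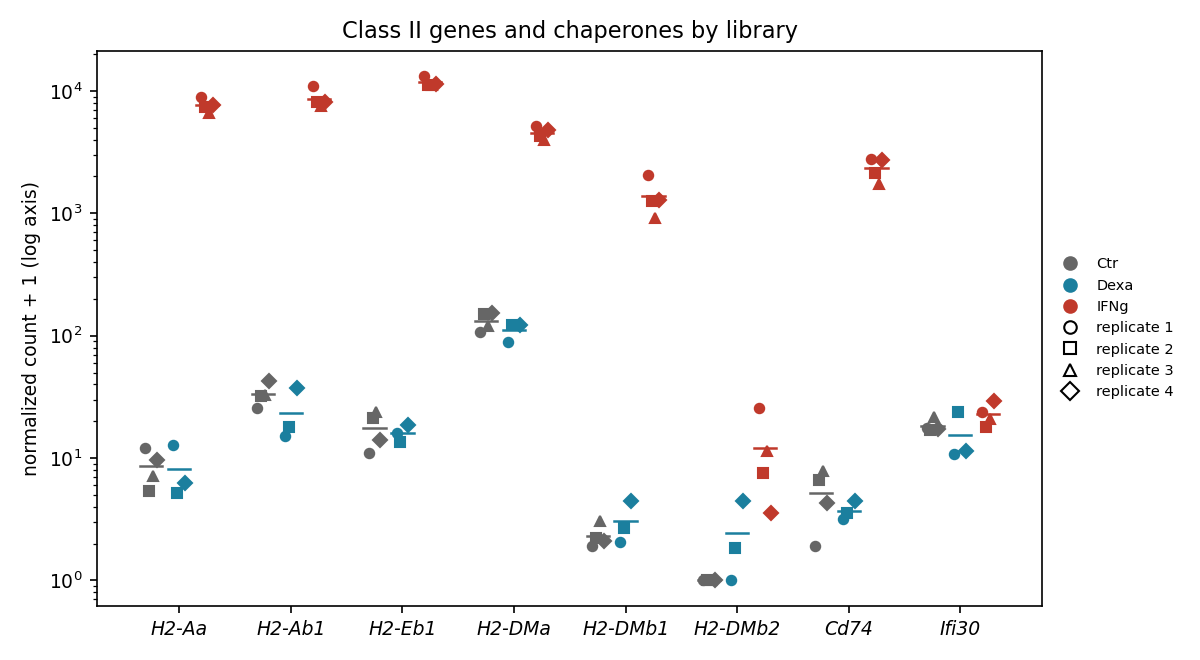
Normalized counts plus 1 (log axis) of the 8 genes in each library, with Ctr in grey, Dexa in blue, IFNg in red, marker shape for replicate number and horizontal lines for group means. The IFNg libraries sit far above both other groups for H2-Aa, H2-Ab1, H2-Eb1, H2-DMa, H2-DMb1 and Cd74, H2-DMb2 is at 0 in Ctr and at most 24.8 normalized counts in IFNg, and the 3 groups overlap for Ifi30.

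The first comparison asked which of the genes responded to interferon-gamma. Of the 8 genes, 6 were called higher in IFNg than in Ctr and 0 lower, H2-DMb2 did not pass the count filter and Ifi30 was not called. DESeq2 called 8.02% of all 17919 genes tested higher in this comparison (edgeR 6.06%), and the median log2 fold change over all genes tested was -0.02. Of the 7 genes that passed the filter, H2-Aa, H2-DMb1 and Cd74 passed only through their IFNg libraries, whereas H2-Ab1, H2-Eb1, H2-DMa and Ifi30 passed through the Ctr and Dexa libraries alone.

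The classical chains form the peptide groove itself. H2-Aa, the alpha chain of I-A (minus strand of chromosome 17, 34282744 to 34287823, GRCm38), had 12, 7, 9 and 8 estimated reads in Ctr replicates 1 to 4, 11, 5 and 3 in Dexa replicates 1, 2 and 4, and 8948, 7887, 5684 and 6004 in IFNg replicates 1 to 4. Every IFNg library lay far above every Ctr and Dexa library. After scaling for depth, H2-Aa rose from 7.56 ± 2.91 to 7667 ± 937 normalized counts, a log2 fold change of 10.06 ± 0.29 (SE; DESeq2 adjusted p = 9.71e-260, edgeR adjusted p = 3.52e-09), the 19th highest of all genes tested.

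H2-Ab1, the beta chain of I-A (plus strand, 34257689 to 34269419), had 27, 50, 46 and 38 reads in Ctr, 13, 20 and 21 in Dexa, and 10981, 8540, 6399 and 6293 in IFNg. Its Ctr libraries were higher than those of its partner chain. It rose from 32.2 ± 6.8 to 8627 ± 1549 normalized counts, a log2 fold change of 8.08 ± 0.24 (DESeq2 adjusted p = 7.83e-254, edgeR adjusted p = 1.38e-08). Among same-numbered cultures the fold ranged from 196 in replicate 4 to 440 in replicate 1.

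H2-Eb1, the beta chain of I-E (plus strand, 34305867 to 34316674), had 11, 33, 33 and 12 reads in Ctr, 14, 15 and 10 in Dexa, and 13331, 11825, 9667 and 8896 in IFNg. It rose from 16.6 ± 6.0 to 11774 ± 987 normalized counts, a log2 fold change of 9.41 ± 0.20 (edgeR adjusted p = 1.19e-09; DESeq2 returned an adjusted p of 0). Its alpha partner is represented in this annotation by the pseudogene H2-Ea-ps, which was listed at 0 reads in all 11 libraries. I-E beta RNA was measured with no read on the listed I-E alpha gene, and the haplotype of the cells was not examined.

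The DM molecule exchanges the invariant chain fragment for peptide. H2-DMa, its alpha chain (plus strand, 34119541 to 34139101), was the best detected of the 8 genes without interferon, at 115, 241, 174 and 140 reads in Ctr, 81.0, 145 and 68.7 in Dexa, and 5191, 4537, 3417 and 3721 in IFNg. It rose from 132 ± 23 to 4550 ± 521 normalized counts, a log2 fold change of 5.11 ± 0.16 (DESeq2 adjusted p = 2.74e-216, edgeR adjusted p = 9.08e-09). This was the smallest change among the 6 called genes in both fits. H2-DMa overlaps other annotated genes on both strands, among them Brd2 on the opposite strand.

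H2-DMb1, a DM beta chain (plus strand, 34153072 to 34160230), had 1, 2, 3 and 1 reads in Ctr, 1, 2 and 2 in Dexa, and 2052.35, 1341.83, 788.88 and 1008.97 in IFNg. The 7 Ctr reads in all set the precision of its fold. The ratio of summed reads per size factor was 1017 with an exact 95% counting interval of 493 to 2530, and the fitted log2 fold change was 9.97 ± 0.62 (DESeq2 adjusted p = 6.37e-56, edgeR adjusted p = 2.23e-08).

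H2-DMb2, the adjacent second DM beta gene (plus strand, 34143307 to 34151555), had 0 reads in all 4 Ctr libraries, 0, 1 and 2 in Dexa, and 24.6, 7.18, 9.13 and 2.03 in IFNg. Its IFNg libraries lay above Ctr but overlapped Dexa. The IFNg mean was at least 4.48-fold higher than a floor of 3 reads per Ctr library, or at least 2.64-fold without IFNg replicate 1, and IFNg replicate 4 was itself under 3 reads. In a fit without the count filter the adjusted p was 2.03e-04 (DESeq2). H2-DMb1 took 99.2% ± 0.5 (SD, n = 4) of the reads of the pair in IFNg. The DM beta genes are close paralogs, so Salmon could have split reads between them, and the few H2-DMb2 reads are uncertain for that reason.

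Cd74, the invariant chain (plus strand of chromosome 18, 60803848 to 60812652), occupies the groove of new class II dimers. It had 1, 9, 10 and 3 reads in Ctr, 2, 3 and 2 in Dexa, and 2773, 2280, 1482 and 2116 in IFNg. It rose from 4.16 ± 2.63 to 2338 ± 492 normalized counts, a log2 fold change of 9.04 ± 0.38 (DESeq2 adjusted p = 1.25e-121, edgeR adjusted p = 2.25e-08). The highest Ctr library, at 6.89 normalized counts, was far below the lowest IFNg library, at 1727.

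Ifi30 (minus strand of chromosome 8, 70762774 to 70766663) had 18, 26, 30 and 15 reads in Ctr, 9, 27 and 6 in Dexa, and 23, 18, 17 and 22 in IFNg. The 3 groups overlapped. Its normalized counts were 17.4 ± 2.2 in Ctr and 21.98 ± 4.82 in IFNg, a log2 difference of 0.32 ± 0.34 (DESeq2 adjusted p = 0.668, edgeR adjusted p = 0.593). Both Ifi30 transcripts are annotated as processed transcripts in the GENCODE release used, and the gene overlaps 6330537M06Rik on the opposite strand.

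**Figure D2:**
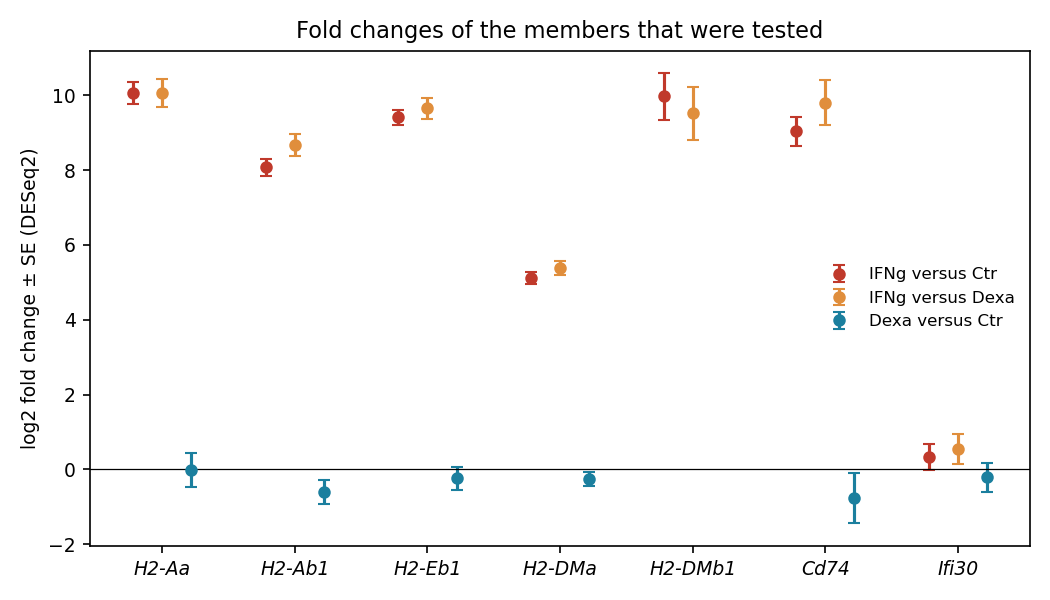
Log2 fold changes with standard errors from DESeq2 for the 7 genes that passed the count filter, in IFNg against Ctr (red), IFNg against Dexa (orange) and Dexa against Ctr (blue); no Dexa against Ctr value is drawn for H2-DMb1, which had at most 3 reads in every library of both groups. The IFNg values lie between 5.11 and 10.08 for 6 genes and near 0 for Ifi30, and the Dexa values lie between -0.77 and -0.02.

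Glucocorticoids restrain class II expression in several immune cell types, and the Dexa comparison asked whether the basal level moved in OPCs. With DESeq2, 0 of the 7 genes that passed the count filter were called in Dexa against Ctr (0 at an unadjusted p under 0.05). Over all genes tested 0.547% were called in either direction. edgeR and DESeq2 with the replicate number as a block also called 0 of the 7, against 0.123% and 2.57% of all genes. Without the block H2-Ab1 had the lowest p, at 24.8 to 41.3 normalized counts in Ctr and 14.0, 16.8 and 36.7 in Dexa, a log2 difference of -0.61 ± 0.32 (unadjusted p = 0.056, adjusted p = 1, DESeq2). It was lower in each of the 3 same-numbered pairs, at ratios of 0.544 to 0.889. H2-DMa was also lower in each of the 3 pairs, at ratios of 0.793 to 0.828, with a log2 difference of -0.26 ± 0.19 (adjusted p = 1, DESeq2). With the replicate block in DESeq2, H2-Ab1 had an unadjusted p of 0.104 (adjusted p = 0.7245). H2-DMa had an unadjusted p of 0.0611 in that fit (adjusted p = 0.5965). H2-Aa, H2-Eb1 and Ifi30 differed by -0.02 ± 0.45, -0.24 ± 0.31 and -0.22 ± 0.40 on the log2 scale. Cd74, at 1 to 10 reads per library, differed by -0.77 ± 0.67, and H2-DMb1 had at most 3 reads in any library of these groups. H2-Aa, H2-Ab1 and H2-Eb1 had 3 to 50 reads per library in these groups, and the size of decrease that could have been called was not examined.

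Set directly against each other, the treatments differed for the same 6 genes. In IFNg against Dexa 6 of the 8 genes were called higher and 0 lower, against 7.66% of all genes tested called higher by DESeq2. The log2 fold changes were 10.08 ± 0.38 for H2-Aa, 8.68 ± 0.30 for H2-Ab1, 9.65 ± 0.27 for H2-Eb1 and 5.37 ± 0.19 for H2-DMa. H2-DMb1 and Cd74 had 5 and 7 Dexa reads in all, and their ratios of summed reads per size factor were 753 (exact 95% counting interval 323 to 2321) and 897 (435 to 2231). Ifi30 differed by 0.54 ± 0.40 (DESeq2 adjusted p = 0.466, edgeR adjusted p = 0.368). This comparison shares its IFNg libraries with IFNg against Ctr and is not an independent repeat of it.

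Per length, the induced genes were far from equal. H2-Eb1 was the highest in IFNg at 229 to 314 TPM (mean 277), followed by H2-Ab1 at 142 to 232 TPM (mean 189), H2-Aa at 129 to 196 TPM (mean 172), H2-DMa at 79.5 to 117 TPM (mean 104), Cd74 at 29.3 to 54.4 TPM (mean 46.6) and H2-DMb1 at 14.2 to 35.5 TPM (mean 24.5). Ifi30 stood at 0.463 to 0.779 TPM and H2-DMb2 at 0.0453 to 0.414 TPM. The ranges of H2-Ab1 and H2-Aa overlapped, as did those of H2-Eb1 and H2-Ab1 and of Cd74 and H2-DMb1. The ranges of the other neighbours in this order, H2-Aa and H2-DMa, H2-DMa and Cd74, H2-DMb1 and Ifi30, and Ifi30 and H2-DMb2, did not overlap. Levels per gene depend on which transcripts the reads were assigned to.

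Ratios within a library compared TPM summed over all transcripts of each gene, coding or not. The I-A chains were close to equal, with H2-Aa at 0.912 ± 0.050 (SD, n = 4) of the H2-Ab1 TPM and below it in every IFNg library. H2-Eb1 was at 1.48 ± 0.11 of H2-Ab1, but 72.6% ± 3.5 of its TPM was assigned to a transcript annotated as a target of nonsense-mediated decay. Cd74 reached only 0.245 ± 0.036 of H2-Ab1, so the invariant chain RNA was below that of either I-A chain in every IFNg library. H2-DMa exceeded H2-DMb1 and H2-DMb2 together by a ratio of 4.47 ± 0.95, from 3.26 in replicate 1 to 5.55 in replicate 3. Ifi30 was at 0.0130 ± 0.0025 of Cd74.

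**Figure D3:**
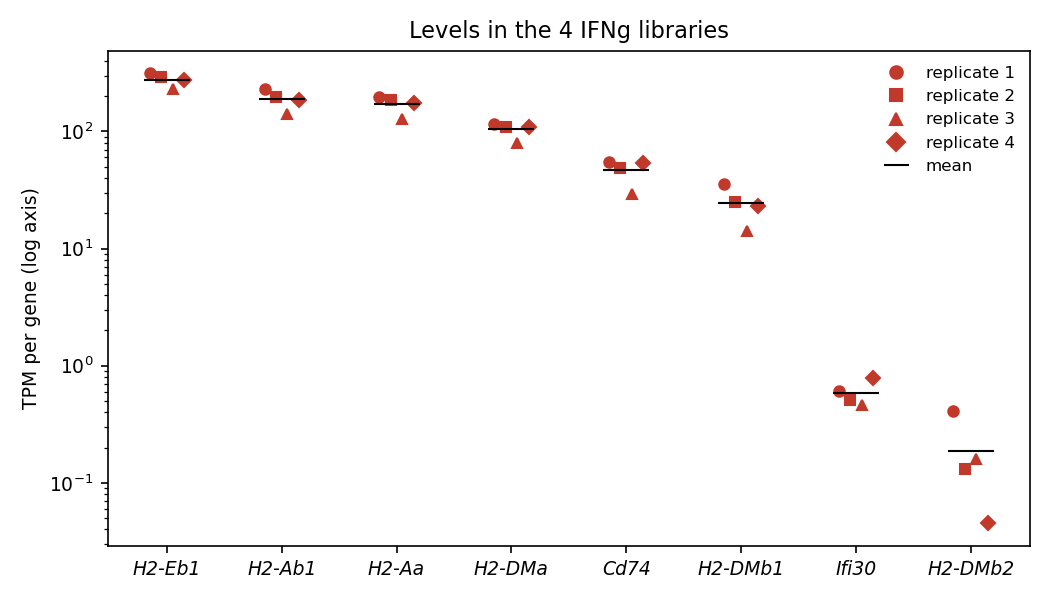
TPM per gene (log axis) of the 8 genes in the 4 IFNg libraries, ordered by mean, with marker shape for replicate number and a black bar for the mean. H2-Eb1 leads at a mean of 277 TPM, Cd74 (46.6 TPM) and H2-DMb1 (24.5 TPM) lie below H2-DMa (104 TPM), and Ifi30 and H2-DMb2 stay under 1 TPM.

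The 6 induced genes ranked the IFNg cultures in a similar way. Replicate 1 held the highest normalized count for all 6, and replicate 3 the lowest for 5, with H2-Eb1 lowest in replicate 2. The coefficient of variation over the 4 IFNg libraries was 8.38% for H2-Eb1, 11.5% for H2-DMa, 12.2% for H2-Aa, 18.0% for H2-Ab1, 21.0% for Cd74 and 34.1% for H2-DMb1. H2-DMb1 in replicate 3 was at 0.451 of its value in replicate 1. Ciita varied by 6.24% and was highest in replicate 2. Markers of cell types differed between these libraries too: replicate 1 had the lowest lineage sum, at 659 TPM against 1155 to 1269 TPM in the other 3, and the highest neuronal sum, at 58.1 TPM against 25.3 to 40.7 TPM. Its Pdgfra was at 18620 normalized counts against 59756 to 80480. Of the neuronal markers, Tubb3 was at 4528 against 1954 to 2692 and Rbfox3 at 56.6 against 21.0 to 35.9. Snap25 went the other way, at 110 against 147 to 235. The astrocyte sum was 173, 165, 84.4 and 150 TPM in replicates 1 to 4. Gfap, Aqp4 and Slc1a3 were highest in replicate 1 and lowest in replicate 3, while Aldh1l1 was highest in replicate 1 and lowest in replicate 4. The fibroblast and pericyte sum was lowest in replicate 1, at 0.235 TPM, and highest in replicate 3, at 1.68 TPM. The part of these differences in the order of the class II genes was not tested.

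**Figure D4:**
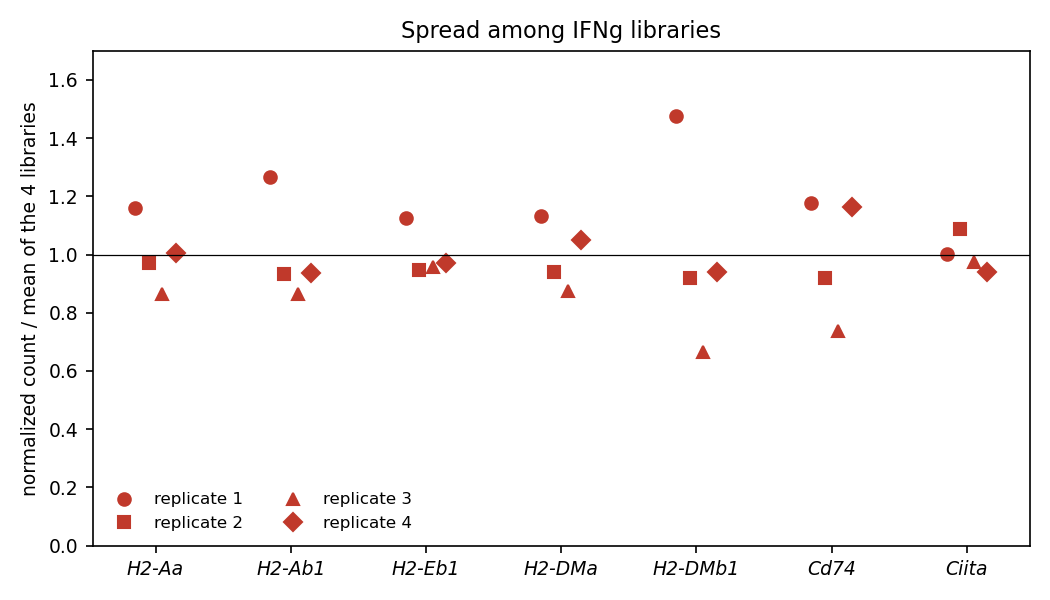
Normalized count of each induced gene and of Ciita in the 4 IFNg libraries, divided by that gene's mean over them, with marker shape for replicate number and a line at 1. Replicate 1 lies above the mean for every class II gene shown, by most for H2-DMb1, while the Ciita points stay between 0.941 and 1.09.

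The Cd74 transcripts encode alternative forms of the invariant chain. The long form, ENSMUST00000097563, carries a whole exon of 192 bases (exon 7, 60811294 to 60811485) that the short form, ENSMUST00000050487, lacks. That exon encodes the thyroglobulin-like domain, which inhibits cathepsin L. In IFNg the short form took 62.4%, 67.4%, 57.0% and 60.7% of the gene's estimated reads in replicates 1 to 4, and the long form took 35.1%, 30.4%, 41.6% and 38.0%. The short form was thus the more abundant in every IFNg library. Of the reads of these transcripts together, the long form held 37.0% ± 4.6 (SD, n = 4), or 33.2% ± 4.4 of their TPM. The third coding transcript, ENSMUST00000167610, was listed at 0 reads in every library, and the retained-intron transcripts held 1.32% to 2.51% in IFNg.

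Without interferon too few Cd74 reads existed to set a share. The 30 reads of all Ctr and Dexa libraries included 10 assigned to the long form; all 10 came from Ctr replicate 3, in which every Cd74 read was assigned to the long form. The other 6 libraries had 0 reads on the long form.

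**Figure D5:**
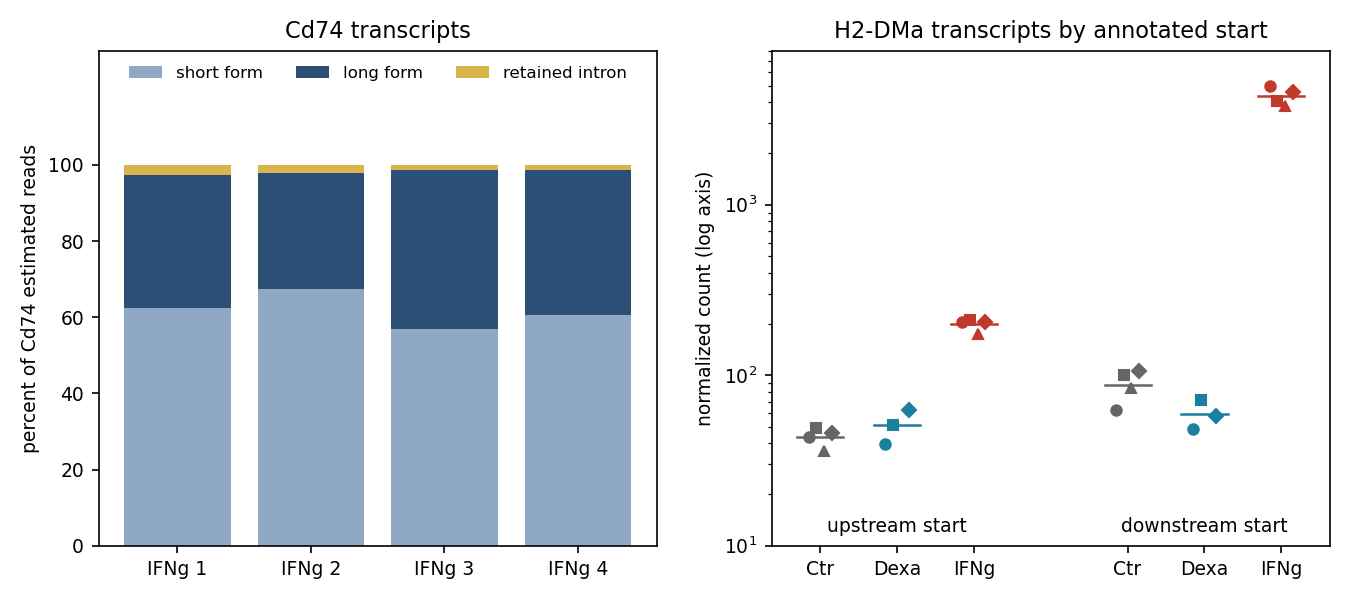
Left, percent of Cd74 estimated reads assigned to the short form, the long form and the retained-intron transcripts in each IFNg library; right, normalized counts (log axis) of H2-DMa transcripts with an upstream or a downstream annotated start in each library, with marker shape for replicate number and lines for group means. The long form ranges from 30.4% to 41.6%, and the downstream-start transcripts reach a mean of 4351 in IFNg against 199 for the upstream-start ones.

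The assignment of H2-DMa reads to annotated starts differed between the groups. Transcripts starting at or before position 34122846, ENSMUST00000042121 among them, held 30.0% to 41.1% of the gene's reads in Ctr, 41.7% to 52.1% in Dexa and 3.97% to 4.93% in IFNg. In normalized counts these upstream-start transcripts went from 43.7 ± 5.6 in Ctr to 199 ± 17 in IFNg, and those with a downstream start from 88.2 ± 19.5 to 4351 ± 511. Among the upstream-start transcripts, ENSMUST00000042121 had 27.3 to 53.1 estimated reads in Ctr and 126 to 203 in IFNg. It ends at 34139101, near the end of ENSMUST00000236322 (34139100), so Salmon could have split reads between them. ENSMUST00000235910 and ENSMUST00000237476 end before the start of ENSMUST00000236322. They had 1.57 to 13.3 and 5.17 to 17.5 reads in Ctr, and 3.06 to 8.74 and 1.01 to 15.7 in IFNg. ENSMUST00000236322, which starts at 34135628, took 56.0% to 66.0% of H2-DMa reads in Ctr and 89.9% to 92.2% in IFNg, and the groups did not overlap. The grouping by start was made after the values were seen and was given no test. Neither RefSeq promoter of H2-DMa is at the start of that transcript.

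The classical chains differed in how their reads were assigned to transcripts. A single coding transcript took 97.7% ± 0.4 of H2-Aa reads (ENSMUST00000040655) and 93.1% ± 4.4 of H2-Ab1 reads (ENSMUST00000040828) in IFNg. For H2-Eb1, 71.7% ± 2.8 of reads were assigned to ENSMUST00000236232, annotated as a target of nonsense-mediated decay, and 15.5% ± 1.7 to the coding ENSMUST00000235530. The former lacks the first 53 bases of exon 2 as the latter has it (34309591 to 34309643). The share of the former was 61.6% to 100% in Ctr, 46.7% to 62.3% in Dexa and 69.2% to 75.1% in IFNg, with 10 to 33 reads of the gene per library in Ctr and Dexa. Transcripts of the same gene share sequence, so Salmon could have split reads between them, and the assignment does not show which transcript was made.

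A list of 22 other genes of the class II pathway was counted alongside. In IFNg against Ctr 16 of the 22 were tested, 3 were called higher and 1 lower with DESeq2, against 8.02% and 4.83% of all genes tested. With the replicate block DESeq2 called 4 higher and 1 lower, in a fit that called 5238 of all 17919 genes tested in either direction. The calls with the block given below have that same background. edgeR without the block called 2 higher and 0 lower, against 6.06% of all genes called higher and 1513 genes called in either direction. The median log2 fold change of the 16 in DESeq2 without the block was 0.03. In Dexa against Ctr 0 of 16 were called by DESeq2 (0 at an unadjusted p under 0.05), as by edgeR.

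Among other class II chains, H2-Eb2 had 0 reads in every Ctr and Dexa library and 54, 34, 12 and 36 in IFNg, at least 14.7-fold higher than a floor of 3 reads per Ctr library (DESeq2 adjusted p = 7.88e-10, edgeR adjusted p = 0.005). It passed the count filter only through its IFNg libraries and could not be fitted without any 1 of them. With the replicate number as a block the DESeq2 call was lost (adjusted p = 0.0834) at a similar log2 fold change (7.81 against 7.94), while that of edgeR was kept (adjusted p = 5.73e-04). H2-Oa and H2-Ob, the chains of the DM inhibitor DO, had at most 1 read in any library.

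Of the factors that act on the X and Y boxes, Ciita moved by far the most. It had 52, 64, 77 and 55 reads in Ctr, 54, 50 and 44 in Dexa, and 7316, 8358, 6062 and 5322 in IFNg, a log2 fold change of 7.20 ± 0.17 (edgeR adjusted p = 2.27e-09; DESeq2 returned an adjusted p of 0). Nfya, a subunit of the Y box factor NF-Y, was 0.23 ± 0.07 higher on the log2 scale (DESeq2 adjusted p = 0.015), a call that edgeR made only with the replicate block (adjusted p = 0.0854 without it and 0.00786 with it; DESeq2 with it, 0.00641). Without the block the DESeq2 call was lost without any 1 of Ctr replicates 2, 3 and 4 or IFNg replicates 1 and 3, at 0.20 to 0.23. The other 6, Rfx5, Rfxap, Rfxank, Nfyb, Nfyc and Creb1, were not called, with log2 differences from -0.20 for Rfxap to 0.12 for Nfyb, and each had 309 or more reads in every library.

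The endosomal proteases that degrade the invariant chain were not called without the block. Ctss, the main such protease in professional antigen-presenting cells, had at most 8 reads in any library, while Ctsl, its counterpart in thymic epithelium, had 1279 to 2719 reads and differed by 0.06 ± 0.12 on the log2 scale. Ctsb and Ctsd differed by 0.00 ± 0.05 and 0.04 ± 0.10. Lgmn was 0.39 ± 0.18 higher (DESeq2 adjusted p = 0.144), and was called with the replicate block (adjusted p = 7.55e-07 in DESeq2 and 4.28e-04 in edgeR).

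March8 and March1 encode ubiquitin ligases that remove class II from the surface. March8 was 0.41 ± 0.14 lower on the log2 scale (DESeq2 adjusted p = 0.0225, edgeR adjusted p = 0.0633) and was called with the replicate block in both tools (adjusted p = 1.44e-10 in DESeq2 and 7.12e-05 in edgeR). Without the block the DESeq2 call was lost without any 1 of Ctr replicates 2, 3 and 4 or IFNg replicates 1 and 2, at -0.43 to -0.33. March1 was 0.50 ± 0.22 higher, which was not called (DESeq2 adjusted p = 0.136) except with the replicate block (adjusted p = 2.23e-04 in DESeq2 and 0.00557 in edgeR). Of the costimulators that accompany antigen display, Cd86 had at most 1 read and Cd40 at most 6 reads in any library, and Cd80, at 13 to 45 reads, differed by 0.00 ± 0.29.

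Among the genes outside the 8 whose pattern over the 11 libraries was most like their mean log2 level were Gbp4, Gbp2, Psme2 and Il18bp, known interferon-gamma targets, at Pearson's r = 0.997 each. These values rest on the split between 4 IFNg and 7 other libraries, which all these genes share. Among the 8 genes themselves r with that mean was at least 0.992 for the 6 called genes, 0.861 for H2-DMb2 and 0.535 for Ifi30. Each of the 8 is part of that mean and the 6 share the rise in IFNg, so their high r was largely fixed in advance.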

How the data were processed

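RNA was extracted and total RNA libraries were made with a stranded kit and sequenced in pairs, per the labels. Per the study's methods the authors trimmed the reads and quantified each transcript with Salmon 0.8.2, and the deposited tables, 1 per library, hold the estimated count of reads and the TPM of each transcript as the authors' tool gave them. GENCODE M21 (GRCm38) named every transcript. Tables of the authors' own fold changes and p-values were deposited too and were not used.

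Estimated counts were summed per gene and rounded for the tests, and TPM was summed per gene. Genes that reached 10 counts in 4 or more libraries were fitted with DESeq2 1.42.0 (R 4.3.3; Wald test, no shrinkage, group as the only term, Benjamini-Hochberg over all genes tested, threshold 0.05). Normalized counts are estimated counts divided by DESeq2 size factors. Alternatives were edgeR 4.0.16 (quasi-likelihood), the replicate number as a block in both tools, TMM size factors, no filter, the compared groups alone, and each library left out in turn. The tests were tried on simulated counts.

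Whether same-numbered libraries shared a litter is not given in the sources used here. Their deviations from the group means correlated at 0.404 to 0.723 over 10 pairs, against -0.614 to 0.495 over 30 pairs with different numbers, so the numbers were taken to pair the samples. The main fits left this pairing out, because the study's methods name no covariate for DESeq2. Only the fits with the replicate block use the pairing, and the other p-values and standard errors ignore it. The 19209063 to 52074652 reads per complete library set the precision of low genes, and intervals and floors cover counting error only. Dexa replicate 3, an incomplete table, was left out. The 8 genes, the pathway and marker lists and the named genes (all 8, every pathway list gene, and the 5 genes most like their mean) were chosen with earlier results of these data known. 1 marker gene and 1 of the genes most like the mean are not reported here.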

Additional observations from a re-analysis of the deposited data

Results flagged for a closer look

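In 6 of 57 groups of 4 libraries examined, 1 library stood apart from the other 3 (its gap to the nearest, over the group's range, passed Dixon's 95% limit). For normally distributed values chance gives such a library in about 1 in 20 groups. A group of 0 reads with a single read in 1 library passes by construction, and the groups share libraries. The 6 of 57 therefore cannot be set against that rate. H2-Eb1 in IFNg replicate 1 was at 13246 normalized counts, with the other IFNg libraries at 11162 to 11421. Ifi30 in Ctr replicate 3 was at 20.7 normalized counts, with the others at 16.1 to 16.5. Lgmn in Ctr replicate 1 was at 961 normalized counts, with the others at 1270 to 1322. H2-Ob and Cd86 each had 0.918 normalized counts, a single read, in Ctr replicate 1 and 0 in the other Ctr libraries. The share of H2-DMa reads assigned to the main downstream-start transcript was 89.9% in IFNg replicate 2, with the others at 92.0% to 92.2%.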

How the results depend on the processing

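The 6 calls in IFNg against Ctr and in IFNg against Dexa kept their direction and their side of the threshold under every alternative that could be fitted, and the replicate block changed none of them and no Dexa call among the 8 genes. Without any 1 IFNg library H2-DMb1 failed the count filter and could not be fitted, which left 5 called. The numbers of genes called over all genes moved more: IFNg against Ctr gave 1513 in edgeR, 5238 with the replicate block in DESeq2 and 5606 with it in edgeR (2302 in DESeq2 without it), Dexa against Ctr gave 22, 460 and 282 (98), and IFNg against Dexa gave 5662 and 6045 with the block in DESeq2 and edgeR (2345). Leaving out 1 library at a time gave 59 to 112 calls in Dexa against Ctr, with the lowest count without Dexa replicate 2. Taken over estimated reads in place of TPM, H2-DMa over the DM beta genes was 3.46 and Ifi30 over Cd74 0.00951.

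Differences near 0 changed sign when 1 library was left out. In Dexa against Ctr the log2 difference ranged from -0.65 to 0.36 for H2-Aa and from -0.80 to 0.026 for Ifi30. In IFNg against Ctr it ranged from -0.12 to 0.17 for Rfx5, -0.0462 to 0.0605 for Nfyc, -0.0082 to 0.0906 for Creb1, -0.0002 to 0.13 for Ctsl, -0.0215 to 0.0308 for Ctsb, -0.0236 to 0.0843 for Ctsd and -0.13 to 0.16 for Cd80, and on the compared groups alone it was -0.001 for Ctsb and -0.0002 for Cd80. The cause was not tested. Depth limits the Ctr and Dexa levels of H2-Aa, H2-DMb1, H2-DMb2 and Cd74, each with at most 12 reads in any such library.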
